A study of Homo sapiens with 4 samples.

Results

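The antiviral effector genes that interferon switches on were followed in MDA-MB-468, a human triple negative breast cancer cell line with a basal-like profile, after treatment with MS1943, a compound made to degrade the histone methyltransferase EZH2. The 45 genes were chosen by a list of symbols, with earlier results of these data known. The list was split into the IFIT, OAS, MX, IFITM and PARP families and 28 further effectors. They are 45 of the 56865 genes that the transcript files could be summed to, and 44 of them were among the 19358 genes with enough reads to test. RNA was sequenced from 2 dishes given 5 µM MS1943 for 3 days and from 2 dishes given DMSO, the vehicle, for which the labels give no time. All 4 libraries came from this 1 line at passage 12, and the labels name no added interferon. The dishes were seeded in duplicate per the labels, so that a p-value here covers only the spread between dishes, which may be technical. The sample titles end in letters that the labels do not explain, 3 for each MS1943 sample and 1 for each DMSO sample, and whether they mark pooled dishes is not stated.

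Type I and type III interferons bind cell surface receptors, whose JAK kinases phosphorylate STAT proteins. These join IRF9 in a complex that binds a promoter sequence called the interferon-stimulated response element (ISRE) and starts transcription of effector genes, while interferon-gamma acts mainly through a different element, GAS. The effector proteins sense or degrade viral RNA, attach the ubiquitin-like protein ISG15 to other proteins, or block entry and budding of viruses, and in carcinoma cells a part of them is often transcribed without infection.

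The promoters of the genes are shown because the ISRE is the sequence feature the family is known for. RefSeq promoters on GRCh38.p14, running from 250 bases before to 50 bases after the start, were matched by symbol for 36 of the 45 genes. IFIT2, IFITM2, MX2, OAS2, OASL, USP18, PARP10, TRIM22 and UBA7 had no entry in the table. The windows below are written 5′ to 3′ on the strand of the gene, with the letters GAAANNGAA, the ISRE core, or its complement TTCNNTTTC in capitals and overlapping matches run together. They belong to the genes with the largest changes (IFI27, IFI44L, IFI6, RSAD2 and MX1), to IFIT1 and ISG15 as family heads, and to TRIM21, which has the letters but did not pass the test of change.
IFI27: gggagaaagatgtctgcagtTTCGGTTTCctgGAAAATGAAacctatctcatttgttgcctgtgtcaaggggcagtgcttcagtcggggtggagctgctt
IFI44L: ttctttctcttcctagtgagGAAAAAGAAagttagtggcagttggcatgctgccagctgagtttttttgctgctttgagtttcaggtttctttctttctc
IFI6: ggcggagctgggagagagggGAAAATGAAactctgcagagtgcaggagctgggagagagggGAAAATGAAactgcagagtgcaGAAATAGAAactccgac
RSAD2: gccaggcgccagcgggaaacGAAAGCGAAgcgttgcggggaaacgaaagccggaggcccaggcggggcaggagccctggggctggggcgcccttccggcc
MX1: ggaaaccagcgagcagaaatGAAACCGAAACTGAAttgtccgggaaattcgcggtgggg
IFIT1: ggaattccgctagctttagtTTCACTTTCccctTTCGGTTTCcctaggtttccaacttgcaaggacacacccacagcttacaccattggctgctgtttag
ISG15: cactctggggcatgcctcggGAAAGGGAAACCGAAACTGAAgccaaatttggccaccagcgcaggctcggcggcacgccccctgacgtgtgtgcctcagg
TRIM21: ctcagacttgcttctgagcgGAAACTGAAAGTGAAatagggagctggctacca

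These windows lie at chr14:94110609-94110708 (plus strand), chr1:78620264-78620363 (plus), chr1:27672269-27672368 (minus), chr2:6865786-6865885 (plus), chr21:41420549-41420607 (plus), chr10:89392488-89392587 (plus), chr1:1013364-1013463 (plus) and chr11:4393653-4393705 (minus). The ISRE letters, searched on both strands, were present in 25 of the 36 promoters (69.4%), against 2847 of all 35116 promoters of the same length (8.11%). At least 2 matches stood in 16 of the 36 promoters, against 246 of all promoters (0.701%). IFI44L has 2 matches, of which the second lies past the window printed above. In MX1 and TRIM21 both matches begin after the start. The GAS letters TTCNNNGAA, which read the same on both strands, were found in 8 of the 36 (22.2%), against 2689 of all promoters (7.66%). The 9 genes without an entry include all 3 that fell with MS1943 and 2 of the 3 that did not pass, so values by motif cover almost only genes that rose, and no test of them was made. The 24 tested genes with a match had a median log2 fold change of 0.97 (0.05 to 5.59), and the 11 without had a median of 1.15 (0.16 to 2.51). For GAS, the median was 0.78 over 7 tested genes with a match and 1.07 over 28 without. A match of letters is a description of the window and not a binding site.

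Most of the effectors rose with MS1943. Of the 44 tested genes, 38 were higher in MS1943 libraries, 3 were lower and 3 did not pass (edgeR quasi-likelihood F test, adjusted p under 0.05 over all tested genes). Of all tested genes 59.3% changed, with 30.0% of all higher and 29.4% lower, and the counts of effectors are read against those shares. Because the list was chosen with earlier results of these data known, its comparisons with all tested genes are descriptions. Higher by at least 2-fold were 20 of the 44, against 7.97% of all tested genes. Both MS1943 libraries lay above both DMSO libraries for 39 of the 44, against 38.4% of all tested genes, and below them for 3, against 39.9%. The median log2 fold change of the 44 was 0.93, against -0.01 for all tested genes. With limma on TPM, a scale that divides by transcript length, 26 to 29 of them were higher; IFITM3, OAS3, DDX60 and LGALS3BP were among those whose call was lost. In bulk RNA, a larger share of cells with a response and more RNA per cell cannot be told apart. The share of reads from mitochondrially encoded transcripts also differed between the groups, with 3.52% and 3.11% in MS1943 libraries against 1.65% and 1.78% in DMSO libraries, and its part in these results was not tested.

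**Figure D1:**
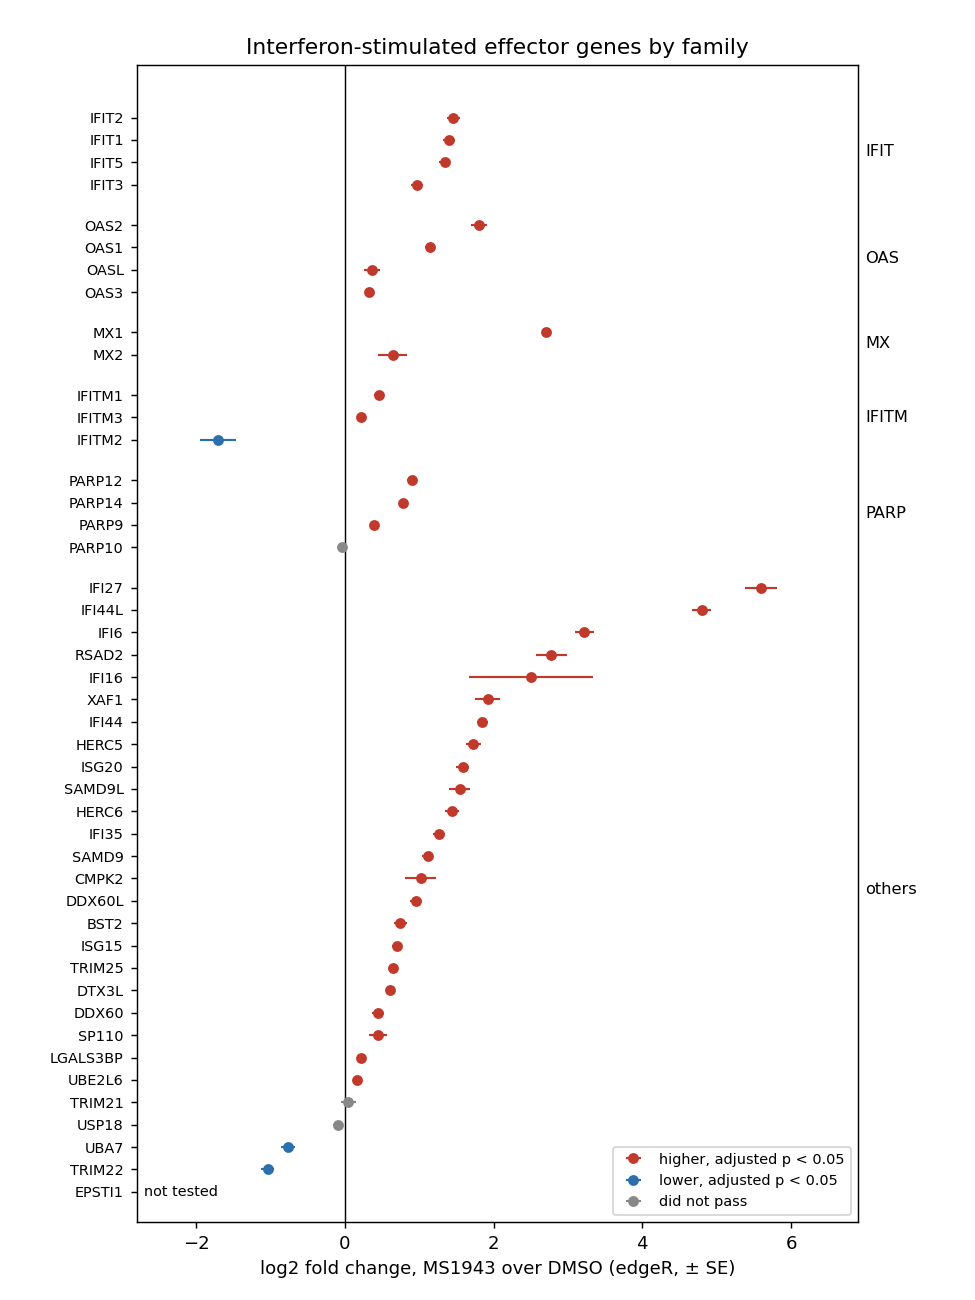
Log2 fold change of MS1943 over DMSO (x axis) for each effector gene, grouped by family, with bars for ± SE from edgeR (2 libraries per group) and colours for the call. Points to the right of 0 are higher in MS1943 libraries; IFI27 and IFI44L lie farthest right, at 5.59 and 4.80, and IFITM2 farthest left, at -1.70. EPSTI1 was not tested and has no point.

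In absolute terms the group is dominated by a few transcripts. The TPM of the 45 genes summed to 1876 and 1929 in the MS1943 libraries, against 1287 and 1299 in the DMSO libraries. MX1 made up 24.7% of the difference of 610 TPM between the group means, and IFI6 15.6%. LGALS3BP and IFITM3, the most abundant transcripts in DMSO cells, made up 36.4% of the sum in MS1943 libraries and 49.5% in DMSO libraries. Each rose by 0.22 on the log2 scale in edgeR, which was fitted to reads and not to TPM. With limma on log2(TPM + 0.1) the rise was 0.12 for LGALS3BP and 0.11 for IFITM3, and neither passed. In MS1943 libraries 2 genes averaged under 1 TPM, 18 between 1 and 10, 19 between 10 and 100 and 6 at 100 or more. In DMSO libraries the numbers were 7, 17, 18 and 3, so that DMSO cells already transcribed most of the genes. Across the 44 tested genes the TPM in DMSO libraries and the log2 fold change had a Spearman rho of -0.49. This is a description, since the points share their libraries and the DMSO level enters both measures.

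**Figure D2:**
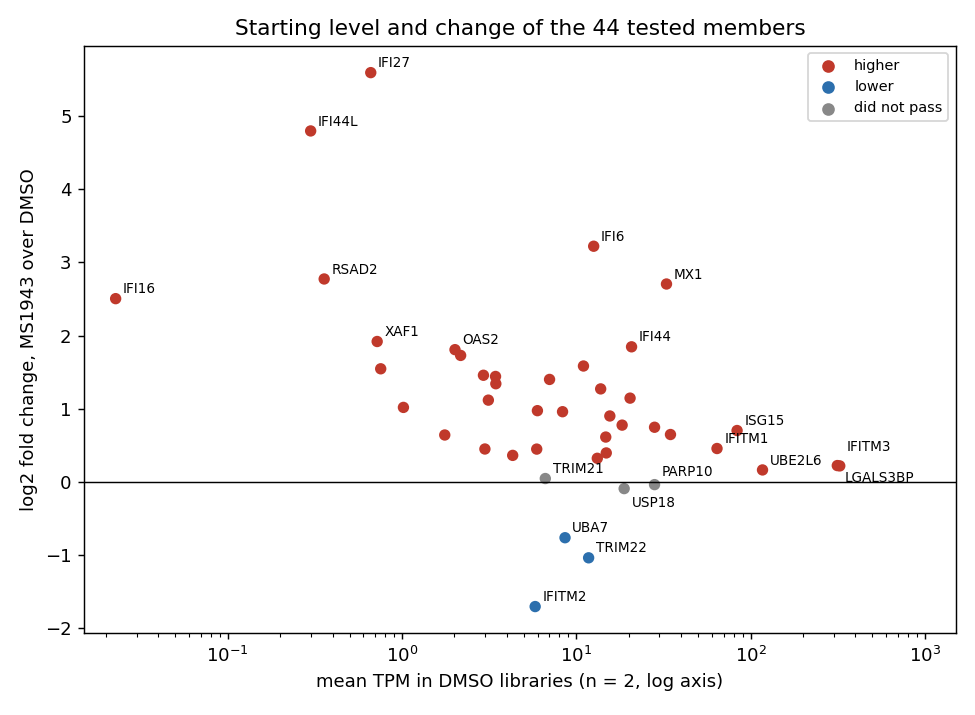
Mean TPM in the 2 DMSO libraries (x axis, log scale) against the log2 fold change of MS1943 over DMSO (y axis) for the 44 tested effector genes, coloured by call. IFI27 and IFI44L combine a DMSO mean under 1 TPM with the largest fold changes, while IFITM3 and LGALS3BP, above 300 TPM, lie at 0.22.

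The IFIT proteins bind viral RNA that lacks the modifications of host messenger RNA and stop its translation. Their genes lie side by side on chromosome 10, and all 4 listed members rose, with a median log2 fold change of 1.37. IFIT1 (chromosome 10, 89392546 to 89406486, plus strand), which recognises RNA caps without methylation, had 21.0 and 22.4 CPM (reads relative to the scaled size of the library) in the MS1943 libraries, against 8.47 and 7.94 CPM in the DMSO libraries. The difference was 1.40 ± 0.08 (log2 ± SE, edgeR adjusted p = 1.8e-11), and the groups did not overlap. IFIT2, which pairs with other IFIT proteins, had 17.4 and 17.6 CPM in MS1943 libraries, against 6.58 and 6.17 CPM in DMSO libraries (1.46 ± 0.09). IFIT3, which stabilises IFIT1, had 18.7 and 18.6 CPM in MS1943 libraries, against 9.01 and 9.96 CPM in DMSO libraries, a log2 fold change of 0.97 ± 0.08. IFIT5, which binds uncapped RNA, had 23.0 and 24.1 CPM in MS1943 libraries, against 9.72 and 8.86 CPM in DMSO libraries (1.34 ± 0.08). In each of the 4 genes both MS1943 libraries lay above both DMSO libraries.

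The OAS enzymes sense double-stranded RNA and make a short oligoadenylate as a messenger. All 4 listed genes rose, but by unequal amounts. OAS1 had 50.2 and 47.8 CPM in MS1943 libraries, against 22.8 and 21.5 CPM in DMSO libraries (1.15 ± 0.06), and OAS2 had 11.8 and 11.9 CPM in MS1943 libraries, against 3.28 and 3.49 CPM in DMSO libraries (1.81 ± 0.10). OAS3, the largest enzyme of the family, had 68.2 and 64.1 CPM in MS1943 libraries, against 52.0 and 53.8 CPM in DMSO libraries (0.32 ± 0.06). OASL has lost the synthetase activity and acts on the RNA sensor RIGI. It had 8.62 and 7.56 CPM in MS1943 libraries, against 6.39 and 6.24 CPM in DMSO libraries (0.36 ± 0.11, edgeR adjusted p = 0.0059). The groups did not overlap for any of the 4. The call of OASL was lost in 5 of 13 alternative settings, among them scaling by total reads (0.25, edgeR adjusted p = 0.0533). Without MS1943 replicate 1 its log2 fold change was 0.25.

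MX1 and MX2 are dynamin-like GTPases that trap viral nucleocapsids, MX1 mainly those of influenza and related viruses and MX2 those of HIV and herpesviruses. MX1 (chromosome 21, 41420304 to 41459214, plus strand) was the most abundant of the strongly raised genes, with 295 and 303 CPM in MS1943 libraries, against 45.8 and 45.9 CPM in DMSO libraries. Its log2 fold change was 2.71 ± 0.06, a 6.52-fold difference with an edgeR adjusted p of 1.7e-17. MX2, next to it, was scarce, with 1.78 and 1.92 CPM in MS1943 libraries, against 1.26 and 1.11 CPM in DMSO libraries (0.64 ± 0.20, edgeR adjusted p = 0.0090). The MX2 call was not firm. It was lost with DESeq2 (adjusted p = 0.0675) and when transcript length was modelled (0.06, edgeR adjusted p = 0.865), and its sign turned on the TPM scale. Transcripts annotated as coding made up 26.9% and 18.7% of the TPM of MX2 in MS1943 libraries, against 13.6% and 2.66% in DMSO libraries.

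**Figure D3:**
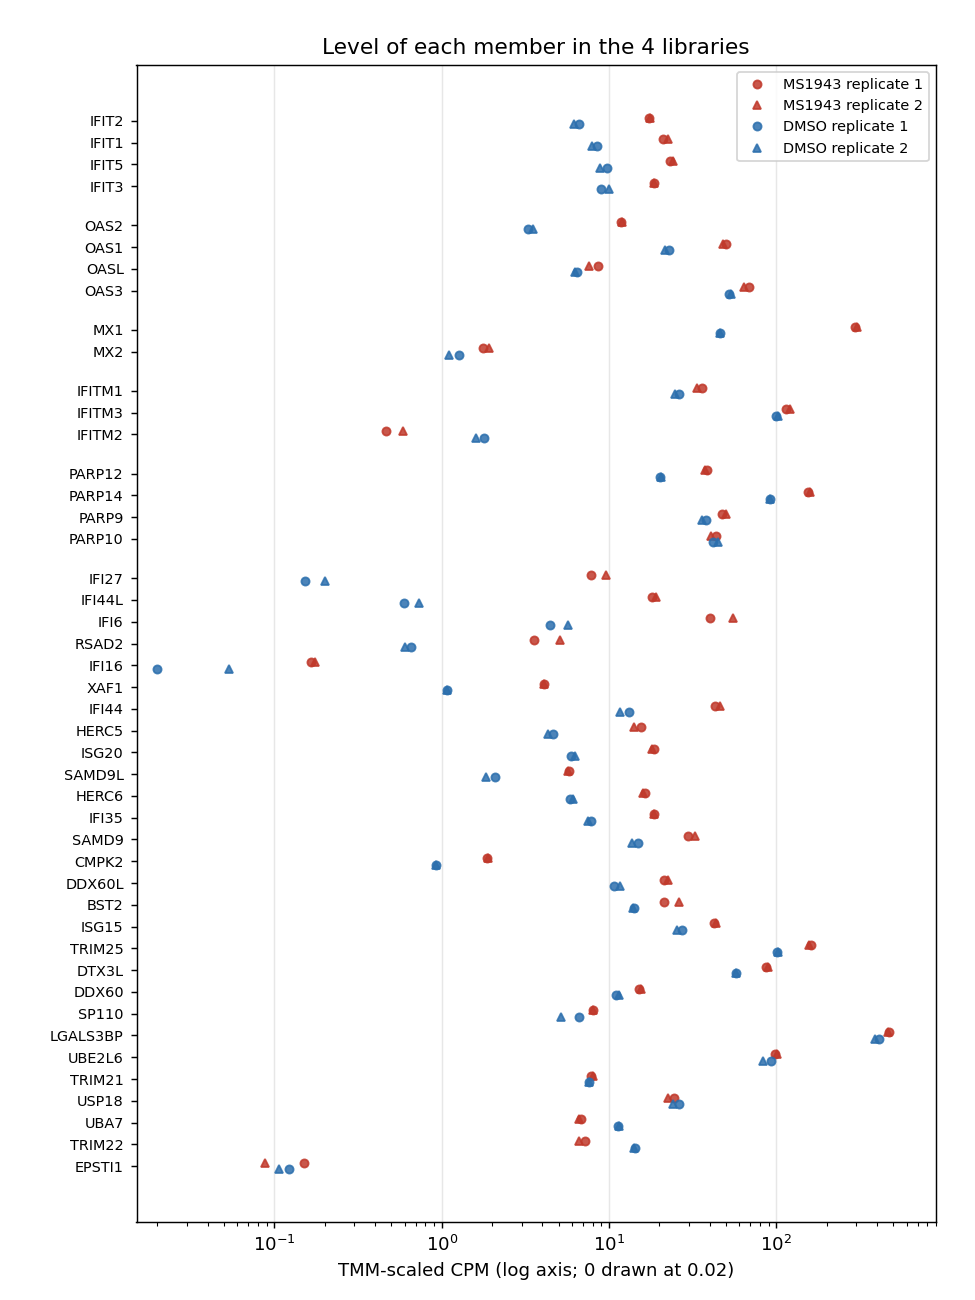
Level of each effector gene in each of the 4 libraries (CPM, log scale), with MS1943 libraries (red) drawn just above DMSO libraries (blue), circles for replicate 1, triangles for replicate 2 and the single level of 0, of IFI16 in DMSO replicate 1, at the left edge. The replicates of a group lie close together for most genes, and the MS1943 points of MX1 (295 and 303 CPM) lie above its DMSO points (45.8 and 45.9 CPM).

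IFITM proteins sit in membranes and block fusion of virus and cell. IFITM3, which works in endosomes, was abundant in both groups, with 114 and 121 CPM in MS1943 libraries against 99.6 and 102 CPM in DMSO libraries (0.22 ± 0.06, edgeR adjusted p = 0.0020). IFITM1, found mainly at the cell surface, had 35.8 and 33.7 CPM in MS1943 libraries, against 26.1 and 24.7 CPM in DMSO libraries (0.46 ± 0.06). IFITM2 (chromosome 11, 307631 to 315272, plus strand) was the effector with the largest fall: 0.466 and 0.590 CPM in MS1943 libraries, against 1.79 and 1.61 CPM in DMSO libraries (-1.70 ± 0.24, edgeR adjusted p = 5.7e-06). The split between the 3 genes is uncertain, because their transcripts are much alike. Of the 31-base stretches in the transcripts of IFITM1, IFITM2 and IFITM3, 35.3%, 45.2% and 56.0% also occur in transcripts of other genes. IFITM2 rests on 31 and 27 reads in MS1943 libraries, against 118 and 121 reads in DMSO libraries. The call of IFITM3 was also lost when libraries were scaled by total reads (0.11, edgeR adjusted p = 0.0956).

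Of the listed members of the PARP family, which attach ADP-ribose to proteins, 3 rose and PARP10 did not pass. PARP14 had 154 and 159 CPM in MS1943 libraries, against 91.3 and 91.9 CPM in DMSO libraries (0.78 ± 0.05), and PARP12, an RNA-binding member, had 38.3 and 37.3 CPM in MS1943 libraries, against 20.2 and 20.3 CPM in DMSO libraries (0.90 ± 0.06). Coding transcripts held only 12.5% and 4.76% of the PARP12 TPM in MS1943 libraries, against 7.46% and 10.8% in DMSO libraries, and the call was lost with coding transcripts only (0.44, edgeR adjusted p = 0.371). PARP9, which forms a complex with the ubiquitin ligase DTX3L, had 47.1 and 49.96 CPM in MS1943 libraries, against 37.8 and 35.9 CPM in DMSO libraries (0.40 ± 0.06). Its partner DTX3L rose by 0.61 ± 0.05. PARP10 had 43.7 and 40.8 CPM in MS1943 libraries, against 42.1 and 44.6 CPM in DMSO libraries, and the groups overlapped (-0.04 ± 0.06, edgeR adjusted p = 0.633). Scaled by total reads it was lower (-0.15, edgeR adjusted p = 0.0491).

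The machinery that attaches ISG15 to proteins did not move as a unit. ISG15 rose by 0.70 ± 0.06, HERC6, the main ligase in mouse, by 1.44 ± 0.09, and UBE2L6, the conjugating enzyme, by 0.16 ± 0.06. The human ligase HERC5 rose most, with 15.5 and 14.1 CPM in MS1943 libraries against 4.62 and 4.33 CPM in DMSO libraries (1.73 ± 0.10). UBA7 (chromosome 3, 49805207 to 49813946, minus strand), the activating enzyme that starts the cascade, fell, with 6.82 and 6.62 CPM in MS1943 libraries against 11.3 and 11.5 CPM in DMSO libraries (-0.76 ± 0.09, edgeR adjusted p = 7.8e-07). The groups did not overlap for either gene. USP18, the protease that removes ISG15 and also damps signalling at the IFNAR2 receptor chain, did not pass. It had 24.4 and 22.5 CPM in MS1943 libraries, against 26.1 and 24.0 CPM in DMSO libraries, and the groups overlapped (-0.09 ± 0.07, edgeR adjusted p = 0.283). Scaled by total reads it was lower (-0.20, edgeR adjusted p = 0.0169). Of its 31-base stretches 28.8% occur in USP41 as well, which held 3 and 11 reads in MS1943 libraries, against 2 and 8 reads in DMSO libraries. The call of UBE2L6 was lost in 8 of 13 alternative settings. Among them were scaling by total reads (0.05, edgeR adjusted p = 0.404) and a transcript length offset (0.15, edgeR adjusted p = 0.113). Its log2 fold change was 0.08 without DMSO replicate 2 and 0.13 without MS1943 replicate 2.

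Among the 45, the 6 genes named IFI held the largest changes. All 6 rose by at least 2-fold, with a median log2 fold change of 2.86. IFI30, which is not among the 45, had a log2 difference of -0.10 ± 0.06 and did not pass. IFI27 (chromosome 14, 94104836 to 94116698, plus strand), a small hydrophobic membrane protein, had 7.78 and 9.62 CPM in MS1943 libraries, against 0.152 and 0.200 CPM in DMSO libraries. This is 5.59 ± 0.21 on the log2 scale, or 48.3-fold (edgeR adjusted p = 3.8e-14), and put IFI27 at rank 44 of the 19358 tested genes ordered from the largest increase. The DMSO libraries held only 10 and 15 reads of it. IFI44L, a cytoplasmic protein of the same family as IFI44, had 18.1 and 19.2 CPM in MS1943 libraries, against 0.592 and 0.733 CPM in DMSO libraries (4.80 ± 0.13, 27.8-fold, rank 74). IFI6, a mitochondrial protein related to IFI27 that limits cell death, had 40.3 and 54.9 CPM in MS1943 libraries, against 4.45 and 5.66 CPM in DMSO libraries (3.22 ± 0.13, 9.33-fold). Both MS1943 libraries lay far above both DMSO libraries for these 3 genes. IFI44 rose by 1.85 ± 0.07. IFI16, a nuclear DNA sensor, rose by 2.51 ± 0.83 on only 11 and 8 reads in MS1943 libraries, against 0 and 4 reads in DMSO libraries. Its call was lost in 5 of the 12 alternative settings that tested it, among them DESeq2 (2.64, adjusted p = 0.102). The log2 fold change of IFI16 was 1.63 without DMSO replicate 1 and 2.47 without MS1943 replicate 2. IFI35, the smallest change of the 6, had 18.5 and 18.4 CPM in MS1943 libraries, against 7.81 and 7.49 CPM in DMSO libraries (1.27 ± 0.08).

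All 4 proteins that act on viral nucleotides or particles rose. RSAD2 (viperin), which makes a chain-terminating nucleotide, had 3.58 and 5.07 CPM in MS1943 libraries, against 0.653 and 0.600 CPM in DMSO libraries (2.77 ± 0.21, 6.84-fold). ISG20, an RNA exonuclease, rose by 1.58 ± 0.09, and CMPK2, the nucleotide kinase encoded next to RSAD2, by 1.02 ± 0.20. BST2 (tetherin), which holds budding virions at the surface, rose least, with 21.2 and 26.3 CPM in MS1943 libraries against 14.1 and 13.99 CPM in DMSO libraries (0.75 ± 0.09). Groups did not overlap for any of these genes. The CMPK2 call was lost when transcript length was modelled (0.41, edgeR adjusted p = 0.166) and with coding transcripts only (0.79, edgeR adjusted p = 0.144).

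The pair of DDX60 helicase genes and the pair of SAMD9 genes, whose proteins restrict poxviruses, rose in all 4 cases. SAMD9L had 5.73 and 5.70 CPM in MS1943 libraries, against 2.08 and 1.84 CPM in DMSO libraries (1.55 ± 0.14), and SAMD9 rose by 1.12 ± 0.07. DDX60, which assists RNA sensing by RIGI, had the smallest change, with 15.05 and 15.6 CPM in MS1943 libraries against 11.0 and 11.4 CPM in DMSO libraries (0.45 ± 0.08), while its relative DDX60L rose by 0.96 ± 0.08. In each neighbouring pair both genes rose, and the difference in size was not tested.

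The TRIM ubiquitin ligases and SP110 were mixed. TRIM25, which ubiquitinates RIGI, had 160.3 and 156 CPM in MS1943 libraries, against 100.4 and 102 CPM in DMSO libraries (0.65 ± 0.05). TRIM22 (chromosome 11, 5689689 to 5737089, plus strand), an antiviral ligase, fell, with 7.16 and 6.60 CPM in MS1943 libraries against 14.3 and 14.1 CPM in DMSO libraries (-1.04 ± 0.09, edgeR adjusted p = 6.6e-09). Of its 31-base stretches 17.2% also occur in transcripts of other genes. TRIM21, a cytosolic antibody receptor, had 7.76 and 7.999 CPM in MS1943 libraries, against 7.62 CPM in each DMSO library (0.05 ± 0.10, edgeR adjusted p = 0.708). Its groups did not overlap, but the gap is smaller than its error. SP110, a nuclear body protein, rose by 0.45 ± 0.12. Its call was lost in 4 of 13 alternative settings, among them limma on log2(TPM + 0.1) (0.31, adjusted p = 0.144). Without DMSO replicate 2 its log2 fold change was 0.27. Of the 31-base stretches of SP110 19.8% also occur in transcripts of other genes.

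Of the remaining 4 genes, XAF1, a pro-apoptotic partner of XIAP, changed most, with 4.11 and 4.07 CPM in MS1943 libraries against 1.08 CPM in each DMSO library (1.92 ± 0.16). Of its 31-base stretches 36.5% occur in PRAL, an overlapping gene annotated on the other strand. The kit did not mark strand, and reads from the shared stretches cannot be told apart. PRAL was assigned 0 and 10 reads in MS1943 libraries, against 0 and 62 reads in DMSO libraries, and XAF1 273 and 186 reads in MS1943 libraries, against 71 and 81 reads in DMSO libraries. LGALS3BP, a secreted glycoprotein, had 469 and 464 CPM in MS1943 libraries, against 410.4 and 388 CPM in DMSO libraries (0.22 ± 0.06). EPSTI1 was not tested, with 10 and 4 reads in MS1943 libraries against 8 reads in each DMSO library.

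In some members the estimated shares of single transcripts differed between the groups. Of 367 annotated transcripts, 12 in 9 genes met a rule. Their mean share of the gene's TPM differed by at least 15 percentage points, with a mean of at least 10% in either group. Both libraries of a group also had to lie above, or both below, those of the other group. No such count was made over the transcripts of all genes, so whether 12 of 367 is more than usual is not known. The shares are estimates of Salmon, whose error the files do not hold, and they were not tested. HERC5-201 carried 90.2% and 99.3% of HERC5 in MS1943 libraries, against 66.9% and 74.9% in DMSO libraries. OAS2-202 carried 41.3% and 44.7% of OAS2 in MS1943 libraries, against 25.6% and 25.7% in DMSO libraries. Both are coding transcripts of genes that rose. IFI44-205, a transcript with no coding annotation, carried 9.62% and 12.6% of IFI44 in MS1943 libraries, against 28.4% and 27.2% in DMSO libraries. It rested on 155 to 173 estimated reads in each library. UBA7-210, also without coding annotation, was at 0% in both MS1943 libraries, against 15.4% and 16.7% in DMSO libraries, where it had 25.1 and 36.4 estimated reads. SP110-215, a coding transcript, held 19.8% and 14.1% of SP110 in MS1943 libraries, on 107.7 and 50.5 estimated reads, against 0% in both DMSO libraries. The other qualifying transcripts, of CMPK2, EPSTI1, IFITM2 and XAF1 and the second of HERC5 and OAS2, rested on 0 to 190 estimated reads.

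Many of the effectors lie in clusters, so the nearest tested coding genes on both sides of 10 clusters and of the single genes OASL, TRIM21 and TRIM22 were set beside them, at 2.61 to 2718 kb. Of the 26 flanking genes 9 rose, 10 fell and 7 did not pass, with a median log2 fold change of -0.05. Of all tested genes 30.0% rose and 29.4% fell, so the count of neighbours is not read as a result about them. Beside MX1 and MX2, TMPRSS2, 5.34 kb away, fell by 0.23 (± 0.05), and FAM3B fell by 1.59 (± 0.58) on under 0.3 CPM in each library. The pair CMPK2 and RSAD2 stood between SOX11, 1139 kb away (-0.89 ± 0.15), and RNF144A, 19.2 kb away (-0.46 ± 0.11), both lower. A few neighbours rose with the cluster. PPM1K, beside HERC5 and HERC6, rose by 1.01 ± 0.15, VPS50, beside the SAMD9 pair, by 0.85 ± 0.06, and P2RX7, beside OASL, by 2.14 ± 0.09, more than OASL itself. LIPA, whose gene overlaps the IFIT span of 137 kb, had a log2 difference of -0.04 ± 0.06 and did not pass. Of the other genes that overlap a span, PALLD, in that of DDX60 and DDX60L, rose by 0.81 ± 0.05 and TRIM5, overlapping TRIM22, by 0.28 ± 0.06, and PARP15, in the span of PARP9, DTX3L and PARP14, had a log2 difference of 0.94 ± 0.43 and did not pass.

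**Figure D4:**
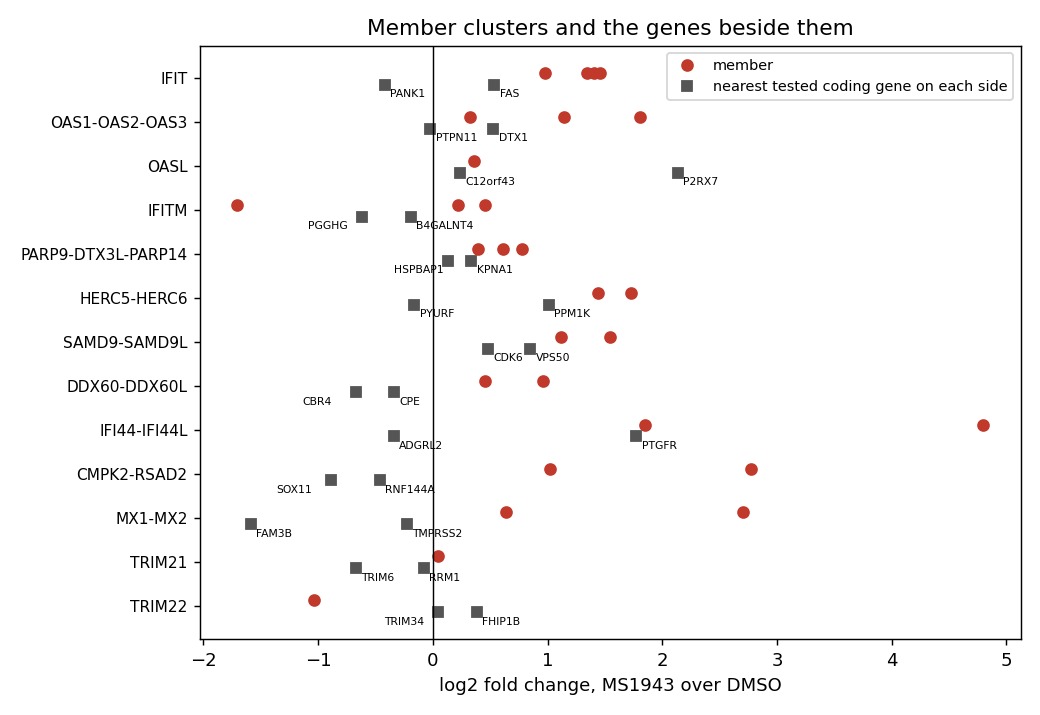
Log2 fold change of MS1943 over DMSO (x axis) for effector genes in each genomic cluster or single locus (circles) and for the nearest tested coding gene on either side (squares). The 26 flanking genes spread around 0 with a median of -0.05, while the circles lie mainly to the right.

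Upstream of the effectors, interferon genes themselves were at the edge of detection. None of the 21 interferon genes found in the annotation, of 22 listed, had enough reads to test, 13 had no read in any library, and the highest level in any library was 0.166 CPM. IFNB1 had 2 and 1 reads in MS1943 libraries, against 0 reads in both DMSO libraries, and IFNL3 had 5 and 7 reads in MS1943 libraries, against 1 and 0 reads in DMSO libraries. A count of 0 allows up to 3 reads, or 0.0456 and 0.0400 CPM in the DMSO libraries, so a difference of this size was not detectable for IFNB1. Receptor chains moved in both directions, with 2 of 6 higher and 3 lower, against 30.0% and 29.4% of all tested genes. IFNAR2, of the type I receptor, had 15.3 and 14.9 CPM in MS1943 libraries, against 26.1 and 26.6 CPM in DMSO libraries (-0.80 ± 0.07). IFNAR1 fell by 0.20 (± 0.05) and IL10RB, of the type III receptor, by 0.45 (± 0.06), while IFNLR1, the other type III chain, rose by 0.28 ± 0.07 and IFNGR2, of the interferon-gamma receptor, by 0.23 ± 0.06. IFNGR1 had a log2 difference of -0.09 ± 0.06 and did not pass. The rise of IFNLR1 was absent on the TPM scale, where it averaged 7.01 TPM in MS1943 libraries and 7.02 TPM in DMSO libraries.

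Of the 13 tested JAK, STAT and IRF genes 8 rose and 3 fell, 2 missed the threshold, and the median was 0.53. Of all tested genes 30.0% rose and 29.4% fell. IRF9, the DNA-binding part of the ISRE-binding complex, had 54.2 and 52.5 CPM in MS1943 libraries, against 11.7 and 12.9 CPM in DMSO libraries (2.12 ± 0.07). Its partner STAT2 rose by 0.62 ± 0.06. IRF7, which drives interferon-alpha genes, rose by 1.75 ± 0.06, IRF5 by 0.53 ± 0.16 and IRF3, which responds to RNA and DNA sensing, by 0.38 ± 0.06. IRF1, the main IRF of the interferon-gamma response, fell by 0.40 (± 0.06), and IRF2, its antagonist, by 0.34 (± 0.07). IRF4 had a log2 difference of -0.04 ± 0.40 and did not pass, and IRF8 was not tested.

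Of the 15 tested sensors and adaptors that lead to interferon, 8 were higher, 5 lower and 2 did not pass (median 0.28). Of all tested genes 30.0% were higher and 29.4% lower. IFIH1, a sensor of long double-stranded RNA, rose by 1.29 ± 0.06 and EIF2AK2, the RNA-activated kinase PKR, by 0.80 ± 0.06. STING1, the adaptor of DNA sensing, fell by 0.88 (± 0.06), and the kinase IKBKE fell by 0.87 (± 0.07). Among 9 negative regulators 2 rose and 3 fell (median -0.11), to be read against the same shares. TRIM27 rose by 0.57 ± 0.06 and SOCS3, which inhibits JAK kinases, by 0.41 ± 0.11, whereas CISH fell by 0.92 (± 0.11) and IRF2BP1 by 0.35 (± 0.07).

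Of 13 tested targets known mainly from interferon-gamma, 3 rose and 5 fell, near the shares over all tested genes (30.0% and 29.4%), and the median was -0.18. WARS1, a tRNA synthetase, rose by 1.71 ± 0.06, the GTPase GBP3 by 1.05 ± 0.06 and the adhesion molecule ICAM1 by 0.53 ± 0.06. GBP1, a relative of GBP3, had 11.6 and 12.0 CPM in MS1943 libraries, against 24.9 and 24.5 CPM in DMSO libraries (-1.06 ± 0.07). A further list of 50 interferon-stimulated genes had 24 higher, 10 lower and 14 not passing among 48 tested (median 0.15). The shares over all tested genes given above apply to this list too. PLSCR1, a membrane scramblase, rose by 1.37 ± 0.06, the nuclear body protein SP100 by 1.36 ± 0.07, the helicase HELZ2 by 1.18 ± 0.06 and the thymidine phosphorylase TYMP by 1.83 ± 0.09. Among the 10 lower genes, C1R fell by 1.36 (± 0.11), PSMB9 by 1.02 (± 0.07), ETV7 by 1.02 (± 0.12) and PSMB10 by 0.86 (± 0.07). No test of the difference between these lists and the effectors was made, and all lists were chosen with earlier results of these data known.

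**Figure D5:**
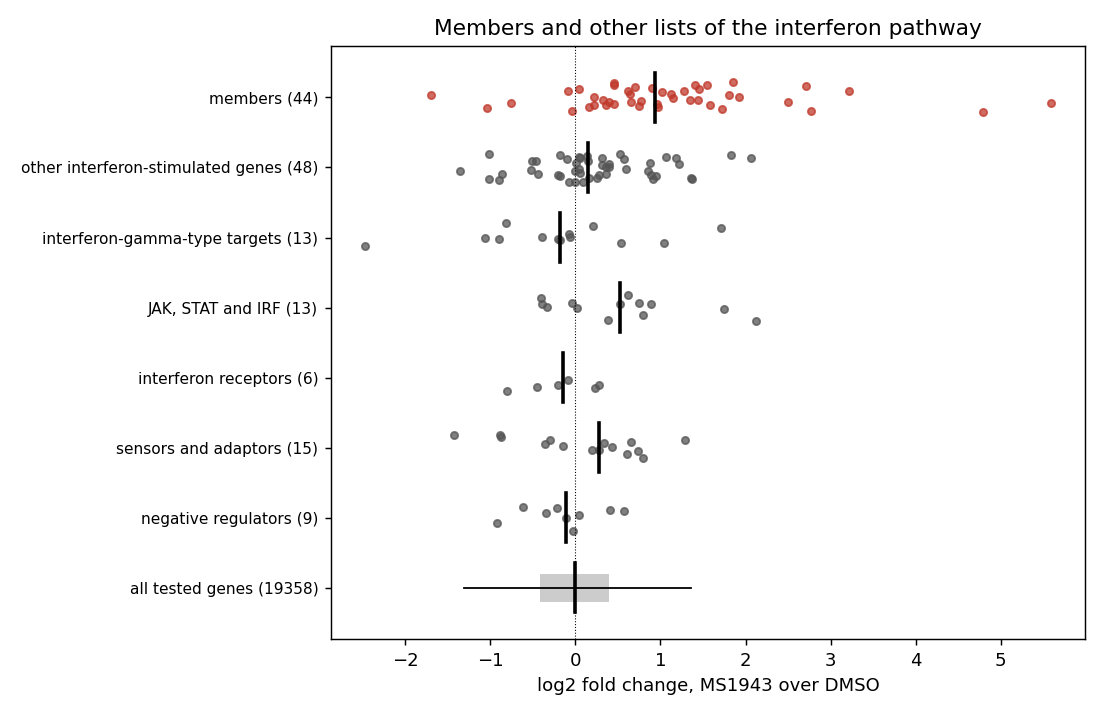
Log2 fold change of MS1943 over DMSO for each tested gene of the effector list and of the other interferon pathway lists, with the median of each list marked by a bar. For all tested genes a box spans percentiles 25 to 75 and a line percentiles 5 to 95. The effectors, labelled members, have a median of 0.93, the JAK, STAT and IRF genes 0.53, the sensors 0.28 and the interferon-gamma-type targets -0.18.

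The libraries held between 47564377 and 71378893 estimated reads. EZH2 is degraded as a protein, so its RNA is no check of the treatment; it had 104 and 108 CPM in MS1943 libraries, against 126 and 117 CPM in DMSO libraries (-0.19 ± 0.06). Basal keratins were abundant in all libraries, with KRT5 at 4090.5 and 3685 CPM in MS1943 libraries, against 1080.4 and 1055 CPM in DMSO libraries. Of the 12 genes listed as basal carcinoma markers 6 rose, KRT5 among them, and 4 fell. The 4 were KRT8 (-0.66 ± 0.06), KRT19 (-0.27 ± 0.06), CDH3 (-0.25 ± 0.06) and CDH1 (-0.24 ± 0.05), while KRT18 and EPCAM did not pass. Marker counts are to be read against all tested genes, of which 30.0% rose and 29.4% fell. Among 12 leukocyte markers 5 had enough reads to test, of which 3 rose and 2 fell. The defining marker PTPRC stayed at or below 0.150 CPM in each library, while CD68 had 32.0 and 29.7 CPM in MS1943 libraries, against 1.08 and 0.826 CPM in DMSO libraries. The TPM of the leukocyte list summed to 151 and 156 in MS1943 libraries and to 192 and 193 in DMSO libraries. CD14 decided this lower sum, with 95.9 and 103 TPM in MS1943 libraries against 187 and 189 TPM in DMSO libraries, while CSF1R had 22.4 and 21.6 TPM in MS1943 libraries against 1.72 and 2.52 TPM in DMSO libraries. Fibroblast markers summed to 18.9 and 16.0 TPM in MS1943 libraries, against 15.1 and 13.2 TPM in DMSO libraries. COL1A1 held most of this sum, with 17.8 and 15.1 TPM in MS1943 libraries against 12.5 and 10.2 TPM in DMSO libraries. Of the 4 tested fibroblast markers 2 rose and 1, PDGFRA, fell (-2.15 ± 0.19). Endothelial markers summed to 0.980 and 0.815 TPM in MS1943 libraries, against 2.35 and 2.18 TPM in DMSO libraries.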

How the data were processed

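RNA-seq of 4 MDA-MB-468 libraries was used, 2 from MS1943-treated and 2 from DMSO-treated cells, grouped by the treatment label. The labels' protocols name poly(A) selection and a TruSeq RNA v2 kit. The submitters' processing notes name Salmon 0.9.1, R 3.4.3, DESeq2 and build hg38; which annotation release the authors used is not given in the sources used here. Per the file headers, the authors deposited estimated counts, Salmon's fractional read number of each transcript. Per the file headers, TPM, the abundance after division by effective length, stands beside them. Salmon models which of several similar transcripts a read came from, and the error of that model is not in the files.

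Of 197653 transcripts per file, 193505 matched GENCODE 29 by identifier without version; the others held 0.482% to 0.496% of reads and were left out. Estimated counts were summed per gene and rounded. edgeR 4.0.16 in R 4.3.3 (TMM scaling, filterByExpr, quasi-likelihood F test of treatment) tested 19358 genes, with Benjamini-Hochberg adjustment over all of them and a threshold of 0.05. The common biological coefficient of variation was 0.0478. CPM values are TMM-scaled, and the SE of a log2 fold change was taken as its absolute value over the root of F. Depth was 69878745 and 47564377 reads for MS1943 and 64720699 and 71378893 for DMSO. A count of 0 allows up to 3 reads, or 0.0451 and 0.0656 CPM in MS1943 libraries and 0.0456 and 0.0400 CPM in DMSO libraries; these floors cover counting error only. Replicates differed by more than counting noise (chi-square per degree of freedom 6.51 for MS1943 and 7.08 for DMSO).

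On simulated data, both groups were drawn around the DMSO means with the dispersion fitted to these libraries. There edgeR called 0 of 18762 genes when none was changed. With 200 genes raised, it called 48 of 64 raised 1.5-fold, 54 of 64 raised 2-fold and 62 of 66 raised 4-fold. It also made 11 calls among 18571 genes not raised. In the data themselves 59.3% of tested genes changed, so the rates there may differ. All 45 members are named, with the value of every library for the 5 families, for members that fell, did not pass or were not tested, and for the largest and smallest change of each role. Of each other list, the 4 passing genes with the smallest adjusted p are named, plus all receptors, STAT2 and the IRF genes; a few genes that this rule or the marker lists hold are not reported here. A few more genes were chosen after their values were seen: the neighbours and markers printed, IFI30, and 4 lower genes of the further list of interferon-stimulated genes. The members and lists were chosen with earlier results of these data known. Promoters are RefSeq's on GRCh38.p14; gene positions come from GENCODE 29 (hg38, first base 1). A comparison of protein sequences was planned but not made, and shared stretches of 31 transcript bases are given in its place. Alternatives used DESeq2 1.42.0, limma 3.58.1 on log2(TPM + 0.1) and log2(TPM + 1), other scalings and filters, a transcript length offset, coding transcripts only, and each library left out in turn.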

Additional observations from a re-analysis of the deposited data

How the results depend on the processing

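Of 44 tested members, 29 kept their side of the threshold in all 13 alternatives. Of these, 28 also kept their direction, and TRIM21, which did not pass, ran from -0.085 to 0.058. The count of higher members, 38, was 26 to 38 across the alternatives and lowest with limma on TPM without a filter. The count of lower members was 3 except when libraries were scaled by total reads, where it was 5, with USP18 and PARP10 added. The median log2 fold change of the members, 0.93, was 0.82 with scaling by total reads, 0.87 with every gene of at least 1 read, 0.79 with the transcript length offset, 0.68 with limma on log2(TPM + 0.1), 0.64 on log2(TPM + 1) and 0.67 without a filter. Scaling by total reads moved the median of all tested genes to -0.12 and the share of changed genes that were higher to 39.8%, against 50.5%; with limma on TPM that share was 39.1% to 39.3%. The number of changed genes, 11488, was 7587 with limma without a filter. Leaving out each library in turn gave 10116 to 11171 changed genes, 36 to 37 higher members, 3 lower members and a median of 0.89 to 0.95; the lone library left in a group is assumed to vary like the other group.

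With limma, MX2 turned to -0.058 on log2(TPM + 0.1), -0.035 on log2(TPM + 1) and -0.058 without a filter, and the log2 fold change of IFNLR1 to -0.011, -0.0086 and -0.011; the cause was not tested. Calls also moved for IFITM3, OAS3, OASL, IFI16, USP18, CMPK2, DDX60, DDX60L, PARP9, PARP10, PARP12, LGALS3BP, SP110 and UBE2L6 in at least 1 alternative. Depth limits IFI16, EPSTI1 and the interferon genes. No paired analysis was possible because the labels give no replicate numbers and do not explain the letters in the titles, and numbers given in accession order pair no samples.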
